A study of Mus musculus with 13 samples.

Results

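The mRNAs described here encode the effectors through which the kinase complex mTORC1 acts on cap-dependent translation. They were listed by name, with earlier results of these data known, and are the 10 genes Eif4ebp1, Eif4ebp2, Eif4e, Eif4g1, Eif4a1, Eif4b, Rps6kb1, Rps6kb2, Pdcd4 and Larp1, out of 40787 genes in the table. All 10 were found by symbol, and all 10 passed the filter on low counts in each comparison below. RNA-seq libraries were made from sciatic nerves of C57BL/6 mice, with the epineurium removed. RaptorKO mice carried Rptor flox/flox together with a tamoxifen-inducible CreERT2 expressed in Schwann cells, so the other cells of the nerve keep Raptor. Controls carried Rptor flox/flox without Cre. Controls and mutants alike received tamoxifen at 2 months of age and a crush of 1 sciatic nerve 2 months later, and nerves were taken at 5 days post crush. The 4 groups were control contralateral (n = 3), RaptorKO contralateral (n = 4), control injured (n = 3) and RaptorKO injured nerves (n = 3), 13 libraries in all. The injured tissue was the stretch distal to the crush, and the contralateral nerve was the uninjured one of an operated mouse.

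By way of background, mTORC1 contains Raptor and couples nutrients and growth signals to protein synthesis. It phosphorylates the 4E-BPs, which otherwise hold the cap-binding protein eIF4E away from the scaffold eIF4G, and the S6 kinases, which in turn phosphorylate ribosomal protein S6, the helicase cofactor eIF4B and the eIF4A inhibitor PDCD4. It also acts on LARP1, which binds mRNAs that begin with a C followed by a run of pyrimidines, the terminal oligopyrimidine or TOP mRNAs of ribosomal proteins and translation factors. After injury Schwann cells leave the myelinating state and become repair cells. Most of this control works through phosphorylation, which RNA-seq does not measure, so the values below are mRNA levels only.

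Library totals ran from 8200458 to 13581775 counts. Levels are given as CPM (a library's counts brought to a common total) after TMM scaling over all 13 libraries. Differences are log2 fold changes with standard errors (SE), and each adjusted p below comes from the quasi-likelihood test of edgeR, adjusted by the Benjamini-Hochberg method across the tested genes. A gene is called where that p is under 0.05 and the fold change exceeds 1.2. Rptor, the targeted gene, was at 43.6 to 52.2 CPM in control contralateral and 22.1 to 27.8 CPM in RaptorKO contralateral nerves, and at 35.0 to 49.5 against 23.3 to 28.8 CPM in injured nerves. It was called lower in both comparisons, by -0.998 (SE 0.12, adjusted p = 5.00e-04) and -0.68 (SE 0.15, adjusted p = 0.0167). The labels number the crushed and contralateral nerves alike within a genotype, and the crush was on 1 side only, so equal numbers were read as the nerves of 1 mouse. Only RaptorKO contralateral replicate 4 had no injured partner. The tests below treat libraries as separate unless a block on this number is named. Both libraries of control replicate 3 held 14462 and 15017 counts of Xist, and the other 11 held at most 17. Y-linked counts were 20 and 10 in the former and 1456 to 2338 in the other 11. By these counts control replicate 3 read as female and every RaptorKO library as male, so sex was not balanced between genotypes. The part of sex in the genotype differences was not tested.

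These are whole nerves, and fewer cells of a type cannot be told apart from less RNA per cell. Of 6 general Schwann cell markers, 4 were lower in RaptorKO nerves on either side. Their summed level was 2522 to 2559 CPM in control and 1350 to 1703 CPM in RaptorKO contralateral nerves, and 1808 to 1868 against 1042 to 1372 CPM in injured nerves. Of 10 myelinating Schwann cell markers 1 was called lower in contralateral and 2 in injured RaptorKO nerves. All 10 lay below 0 between contralateral nerves, and 6 below and 4 above 0 between injured nerves. Of the repair Schwann cell markers, 1 of 6 tested was higher in RaptorKO contralateral nerves, with a summed level of 149 to 162 against 106 to 141 CPM. In injured nerves 0 of 8 tested repair markers were called. All 8 lay below 0 in RaptorKO against control, with overlapping summed levels of 1840 to 2432 against 2277 to 2632 CPM. Of the macrophage markers, 6 of the 9 tested were higher in RaptorKO contralateral nerves, with a summed level of 285 to 336 against 168 to 186 CPM. There 3 of 6 fibroblast markers were also higher, with 9376 to 12435 against 6440 to 7366 CPM, and 2 of the 5 tested mast cell markers, with 81.3 to 140.0 against 12.2 to 59.6 CPM. In injured RaptorKO nerves all 8 endothelial, 5 of 6 pericyte and smooth muscle and 5 of 6 mast cell markers were higher, as were 2 of 6 fibroblast markers, and all 8 proliferation markers were lower. Skeletal muscle markers summed to at most 25.8 CPM in any library, with Myh1 at 0 throughout. Adipocyte markers reached 145 CPM in 1 RaptorKO contralateral library and stayed at or below 33.0 CPM in each control. The part of these other cells in the results below was not tested.

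Eif4b (ENSMUSG00000058655) lies at chr15:102073773-102097173 on the plus strand in GRCm38 with GENCODE M21, and Eif4a1 (ENSMUSG00000059796) at chr11:69666936-69672423 on the minus strand. Larp1 (ENSMUSG00000037331) lies at chr11:58009064-58062034 on the plus strand, and Eif4g1 (ENSMUSG00000045983) at chr16:20668313-20692884 on the plus strand. Their annotated starts are shown because LARP1 recognises mRNAs by the bases at the cap, and because Eif4b and Eif4a1 carry the main genotype and injury results. Each window runs 5' to 3' on the gene's strand from 20 bases before the RefSeq start to its first 10 transcribed bases (GRCm38.p6), so all but the last 10 bases are promoter. Capitals mark the longest stretch of a C followed by at least 4 further C or T bases.
Eif4b, chr15:102073753-102073782: gcgcaggtCTTCCCgtcggacgccgcgcca
Eif4a1, chr11:69672414-69672443: cgcctacaaagtaacgtcacgtcgagttgc
Larp1, chr11:58009044-58009073: caggccggctaggcgcgccggagCCTTCTg
Eif4g1, chr16:20672707-20672736: cccggcgccagcgcagctccgCCCTCTgcg

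Counting the start base as 0, the stretch of 6 bases began at position -12 in Eif4b, at 3 in Larp1 and at 1 in Eif4g1, and the window of Eif4a1 held none. Of the 8 members with a RefSeq start, 5 had such a stretch in at least 1 window. Among them Eif4e and Pdcd4 each had a further start without it, and theirs began at -12 and -7, upstream of the start like that of Eif4b. In no window of a member did the stretch begin at the start base itself. A stretch was present for 66.7% of 69 ribosomal protein symbols, also counted per gene. Counted per start, which is not the same measure, it was present at 37.6% of all 32851 RefSeq starts. It is thus common, and the search covered the gene's strand only. The starts are annotated, not measured in these nerves. No window was found for Eif4ebp1 and Rps6kb2.

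RaptorKO nerves differed from controls in few of the members. In contralateral nerves 2 of 10 were called, Eif4b and Eif4ebp1, both higher, where 4.49% of the 11878 tested genes were called higher and 5.68% lower. In injured nerves 1 of 10 was called, Eif4b, again higher, against 4.09% higher and 4.44% lower of 12040 genes. Crush injury changed more of them. In controls 5 rose (Eif4ebp1, Eif4ebp2, Eif4e, Eif4g1 and Eif4a1) and 1 fell (Pdcd4), and in RaptorKO nerves 4 rose (Eif4ebp1, Eif4ebp2, Eif4g1 and Eif4a1) and 2 fell (Eif4b and Rps6kb1). The background was wide here: injury raised 32.4% and lowered 32.9% of 12430 genes in controls, and raised 30.5% and lowered 28.5% of 12515 in RaptorKO nerves. The median log2 difference over the members was 0.06 in contralateral and 0.14 in injured nerves between genotypes, and 0.22 and 0.28 with injury in control and RaptorKO nerves. Over all tested genes these medians were 0.01, 0.00, -0.00 and 0.03. The comparisons share libraries, since each group enters both a genotype and an injury comparison.

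**Figure D1:**
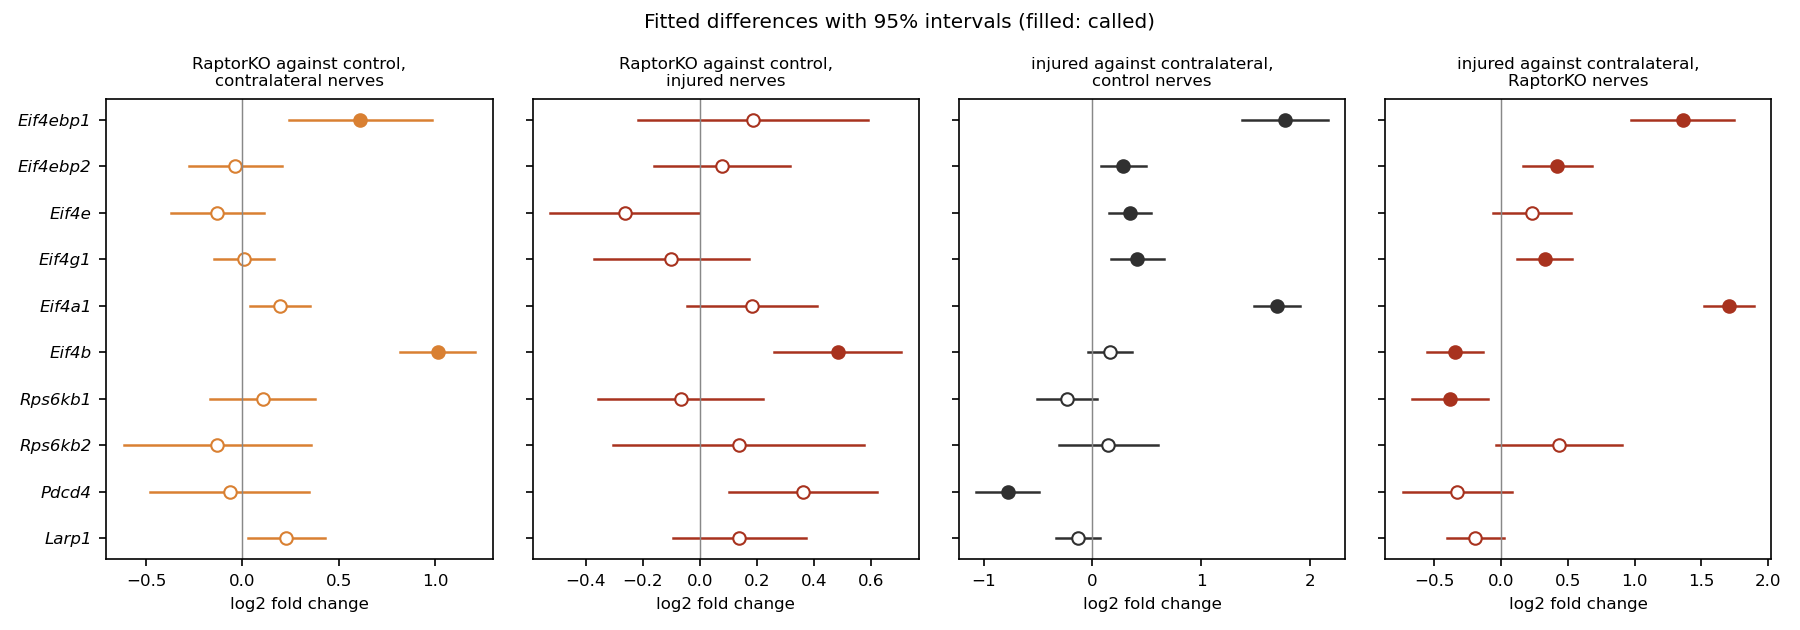
Log2 fold change of the 10 members (points) with 95% intervals (lines) in the 4 comparisons, filled where called; the horizontal scales differ between panels. Eif4b is the only filled point in both genotype panels, and Eif4ebp1 and Eif4a1 lie farthest to the right in both injury panels.

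Eif4b encodes the cofactor that raises the helicase activity of eIF4A and is itself a target of the S6 kinases. It was at 249.7, 242 and 257 CPM in control contralateral nerves and at 464, 457, 516 and 543 CPM in RaptorKO contralateral nerves. The groups stood well apart, with a mean of 249 ± 7.64 (SD, n = 3) against 495 ± 41.1 CPM (SD, n = 4). The fitted difference was 1.01 (SE 0.09, 95% interval 0.82 to 1.21, adjusted p = 8.75e-05), a 2.02-fold higher level in RaptorKO nerves. It was called under all 14 alternatives, DESeq2 and the exact test included, with adjusted p from 6.60e-27 to 0.00152.

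In injured nerves Eif4b read 297, 293.5 and 272 CPM in the controls. The RaptorKO libraries read 409.8, 392 and 387 CPM. The groups again did not overlap, but they lay closer together, with a log2 difference of 0.48 (SE 0.10, 95% interval 0.26 to 0.71, adjusted p = 0.0146), 1.40-fold. The call was lost on leaving out control injured replicate 2 (adjusted p = 0.0687), control injured replicate 3 (adjusted p = 0.05003) or RaptorKO injured replicate 1 (adjusted p = 0.0690), with the difference then at 0.49, 0.45 and 0.46. The range of adjusted p over its 13 alternatives, DESeq2 and the exact test included, was 1.04e-04 to 0.0690.

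The injury response of Eif4b was then set against genotype. In controls it was 0.16 higher after crush (SE 0.09, adjusted p = 0.146), which was not called. In RaptorKO nerves it fell by 0.35 (SE 0.10, adjusted p = 0.0100), from 457 to 543 CPM down to 387 to 409.8 CPM, so the groups did not overlap. The test of the difference between these responses gave -0.53 (SE 0.12, 95% interval -0.79 to -0.27, adjusted p = 0.0361). Eif4b was the 1 member called of 10, where 1.07% of 12851 genes had a higher and 1.41% a lower response in RaptorKO nerves. The call was lost on leaving out any of 11 of the 13 libraries, all but RaptorKO contralateral replicate 2 and control injured replicate 3. It was also lost with a block on the mouse (-0.47, adjusted p = 0.0693), with no count filter and without both libraries of control replicate 3. Over these losses the adjusted p was 0.0516 to 0.0970, while the difference stayed between -0.58 and -0.47 in all 18 alternatives.

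**Figure D2:**
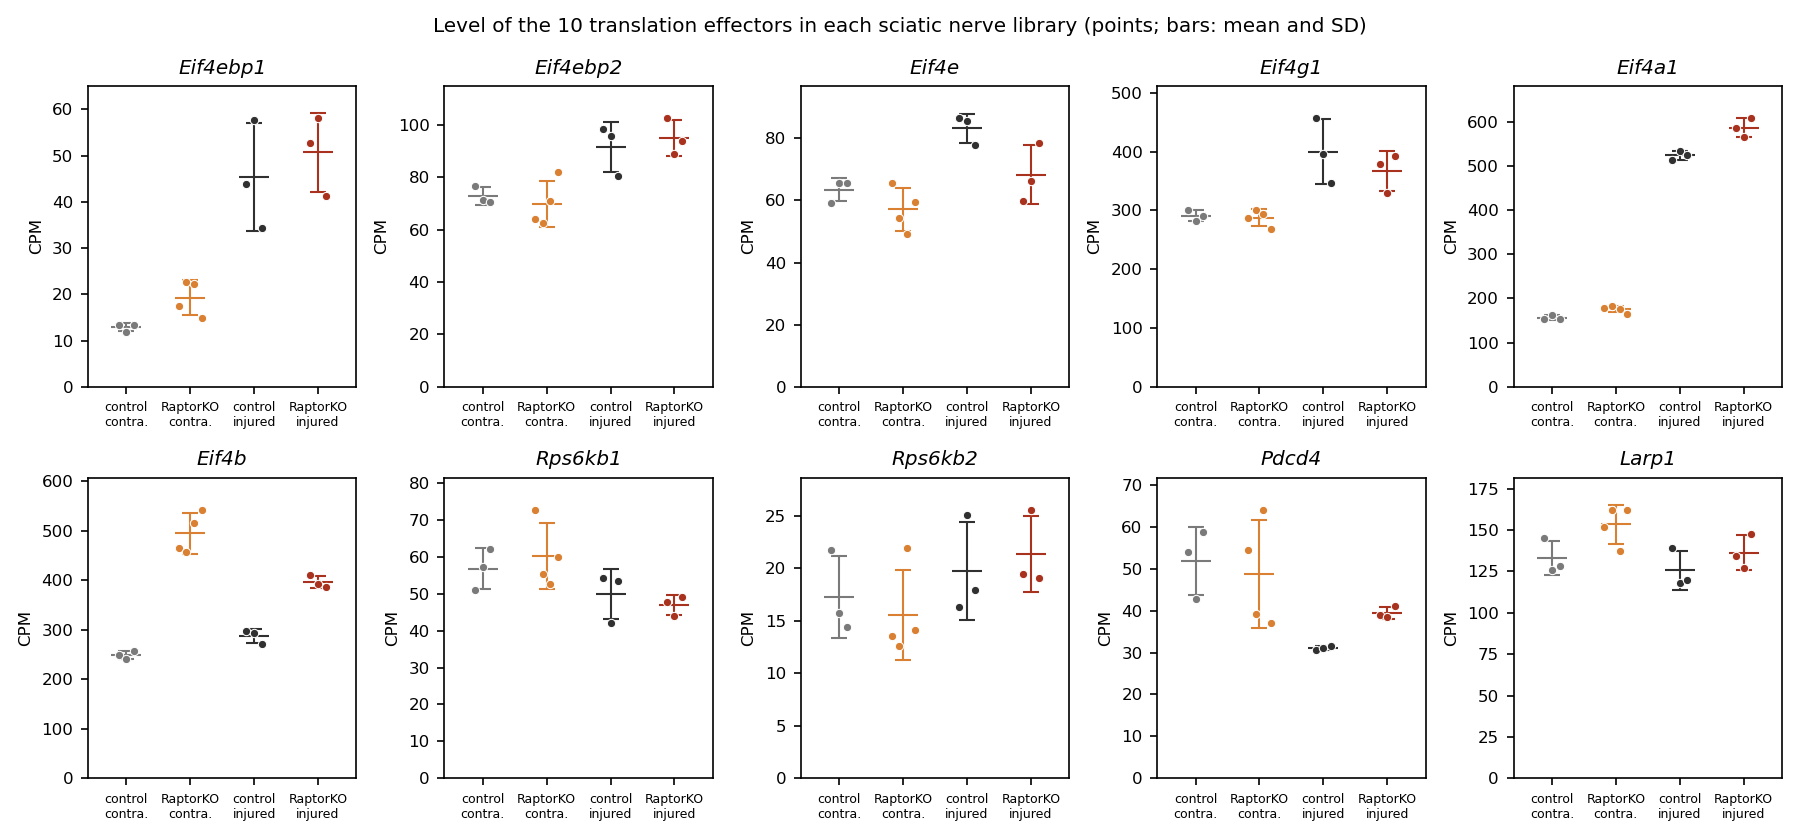
CPM of each member in each of the 13 libraries (points), with the mean and SD of each group (horizontal bars and whiskers); every vertical axis starts at 0. Eif4b is higher in RaptorKO nerves on both sides, Eif4a1 and Eif4ebp1 are higher in injured nerves of both genotypes, and Rps6kb2 has wide spreads at a low level.

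Eif4ebp1 (ENSMUSG00000031490, chr8:27260329-27276674, plus strand) encodes 4E-BP1, the repressor of eIF4E best known as an mTORC1 substrate. It was low in control contralateral nerves, at 13.4, 11.9 and 13.3 CPM, and read 17.4, 22.7, 22.2 and 14.9 CPM in RaptorKO contralateral nerves. The groups did not overlap, though the RaptorKO libraries were spread widely. The difference was 0.61 (SE 0.17, 95% interval 0.24 to 0.99, adjusted p = 0.0449), close to the threshold. It was lost on leaving out any single library other than RaptorKO contralateral replicate 4, namely control replicates 1 to 3 and RaptorKO replicates 1 to 3 (adjusted p = 0.0643 to 0.169, difference 0.52 to 0.67), and with all 13 libraries in 1 fit (adjusted p = 0.0635). In injured nerves Eif4ebp1 read 43.9, 57.6 and 34.4 CPM in the controls. The RaptorKO libraries read 52.8, 58.1 and 41.2 CPM. These groups overlapped, and the difference of 0.19 (95% interval -0.22 to 0.59, adjusted p = 0.641) was not called.

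Injury raised Eif4ebp1 by 1.77 in controls (SE 0.18, adjusted p = 3.47e-06) and by 1.36 in RaptorKO nerves (SE 0.17, adjusted p = 6.46e-05). Each injured library lay above each contralateral library of its genotype. The difference between the responses, -0.43, was not called (95% interval -0.998 to 0.14, adjusted p = 0.544). Eif4ebp2 (ENSMUSG00000020091, chr10:61428491-61452661, minus strand), the second 4E-BP, rose less. It was at 76.8, 71.3 and 70.4 CPM in control contralateral and 98.6, 95.7 and 80.5 CPM in control injured nerves, a difference of 0.28 (SE 0.09, adjusted p = 0.0194). This call was lost without control contralateral replicate 2 (0.26, adjusted p = 0.0687) or replicate 3 (0.25, adjusted p = 0.0759), and without control injured replicate 2 (0.28, adjusted p = 0.0519) or replicate 1, where the fold fell below 1.2 (0.25, adjusted p = 0.0445).

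In RaptorKO nerves Eif4ebp2 went from 64.1, 62.6, 70.9 and 81.9 CPM to 103, 89.0 and 94.1 CPM, a rise of 0.42 (SE 0.12, adjusted p = 0.00948). Without RaptorKO injured replicate 1 the rise was 0.36 and missed the call (adjusted p = 0.0515). Between genotypes Eif4ebp2 differed by -0.04 (95% interval -0.28 to 0.20) in contralateral and 0.08 (95% interval -0.16 to 0.31) in injured nerves, neither called. Each changed sign on leaving out at least 1 library.

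Eif4e (ENSMUSG00000028156, chr3:138526179-138559696, plus strand) encodes the protein that binds the cap and that the 4E-BPs sequester. Its level was 59.1, 65.7 and 65.7 CPM in control contralateral and 86.4, 85.4 and 77.8 CPM in control injured nerves. The groups stood apart, with a rise of 0.34 (SE 0.09, adjusted p = 0.00485). In RaptorKO nerves it read 65.6, 54.4, 49.1 and 59.3 CPM on the contralateral and 59.95, 66.4 and 78.6 CPM on the injured side, with overlap and no call (0.23, 95% interval -0.06 to 0.53, adjusted p = 0.151). The difference between the responses was -0.13 (95% interval -0.48 to 0.22, adjusted p = 0.807). Between injured nerves Eif4e was at -0.26 in RaptorKO against control (95% interval -0.53 to -0.00, adjusted p = 0.226). That comparison was not called and its libraries overlapped.

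Eif4g1 encodes the scaffold that joins eIF4E and eIF4A. It ran from 282 to 300.5 CPM in control contralateral nerves and from 346.5 to 457 CPM in control injured nerves, a rise of 0.41 (SE 0.11, adjusted p = 0.00633). In RaptorKO nerves it went from 268 to 301 CPM up to 329 to 393 CPM, a rise of 0.33 (SE 0.09, adjusted p = 0.0116). Neither pair of groups overlapped. Its genotype differences were 0.01 (95% interval -0.15 to 0.17) and -0.10 (95% interval -0.37 to 0.17) in contralateral and injured nerves, and the contralateral value changed sign under some alternatives.

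Eif4a1 encodes the RNA helicase of the complex and responded to injury to nearly the same extent in both genotypes. It was at 153, 162 and 153.5 CPM in control contralateral and at 514, 534 and 524 CPM in control injured nerves. In RaptorKO nerves it was at 179, 184, 176 and 166 CPM on the contralateral and 585, 566 and 608 CPM on the injured side. The rise was 1.70 (SE 0.10, adjusted p = 1.95e-08) in controls and 1.71 (SE 0.08, adjusted p = 6.14e-08) in RaptorKO nerves, or 3.24-fold and 3.27-fold. The responses differed by -0.01 (95% interval -0.24 to 0.22, adjusted p = 0.981). RaptorKO libraries lay above control libraries on both sides, by 0.20 in contralateral (95% interval 0.04 to 0.35, adjusted p = 0.108) and 0.18 in injured nerves (95% interval -0.05 to 0.41, adjusted p = 0.357), and neither was called. Eif4a1 values were not whole in 10 of 13 libraries, where the counting shared reads with other genes, and 2 small nucleolar RNA genes overlap its exons by 143 and 144 bases, so its level is less certain than that of Eif4ebp2, which was whole in all 13.

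Rps6kb1 (ENSMUSG00000020516, chr11:86498871-86544805, minus strand) encodes S6K1. It was at 51.0, 57.1 and 62.1 CPM in control contralateral and 54.2, 42.0 and 53.4 CPM in control injured nerves, with overlap and no call (-0.23, 95% interval -0.51 to 0.04, adjusted p = 0.123). In RaptorKO nerves it went from 72.8, 55.3, 52.6 and 59.8 CPM to 47.9, 43.9 and 49.1 CPM and fell by 0.38 (SE 0.13, adjusted p = 0.0256). The call was lost without RaptorKO contralateral replicate 1 (-0.28, adjusted p = 0.0709), RaptorKO injured replicate 1 (-0.40, adjusted p = 0.0605) or RaptorKO injured replicate 2 (-0.33, adjusted p = 0.0831). The difference between the responses was -0.17 (95% interval -0.57 to 0.23, adjusted p = 0.780). Between genotypes its differences were 0.11 (95% interval -0.17 to 0.38) and -0.07 (95% interval -0.36 to 0.22), neither called.

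Rps6kb2 (ENSMUSG00000024830, chr19:4153991-4163354, minus strand) encodes S6K2 and ran from 12.6 to 25.6 CPM over the 13 libraries. No comparison called it. Its intervals were wide, from -0.62 to 0.35 between contralateral and from -0.30 to 0.57 between injured nerves, so differences within these bounds would not have been seen. Of its 5167 exonic bases, 1224 overlap Ptprcap, a leukocyte gene on the opposite strand. The libraries were made with a stranded kit. The strand setting of the counting is not given in the sources used here, so the counts of the 2 genes may not be separated.

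Pdcd4 (ENSMUSG00000024975, chr19:53892231-53929860, plus strand) encodes an inhibitor of eIF4A that S6K1 marks for degradation. It was at 54.0, 42.8 and 58.7 CPM in control contralateral nerves and at 30.7, 31.1 and 31.7 CPM in control injured nerves. The groups did not overlap, and it fell by 0.78 (SE 0.13, adjusted p = 2.50e-04). RaptorKO contralateral nerves were scattered, at 54.5, 39.1, 64.1 and 37.1 CPM, and RaptorKO injured nerves were at 38.9, 38.4 and 41.1 CPM. These overlapped, and the difference of -0.33 was not called (95% interval -0.74 to 0.08, adjusted p = 0.148). With a block on the mouse it was -0.41 and was called (adjusted p = 0.0364). The responses of the genotypes were not shown to differ (0.43, 95% interval -0.10 to 0.95, adjusted p = 0.494). Between injured nerves each RaptorKO library lay above each control library, by 0.36 (SE 0.12, 95% interval 0.10 to 0.62), which missed the threshold after adjustment (adjusted p = 0.0915, range over 13 alternatives 0.0885 to 0.282).

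Larp1, whose product binds the cap and the start of TOP mRNAs, varied little. It ran from 126 to 145 CPM in control contralateral, from 137 to 162 CPM in RaptorKO contralateral, from 118 to 139 CPM in control injured and from 127 to 148 CPM in RaptorKO injured nerves. All 4 ranges overlapped, and no comparison called it. The differences were 0.23 between contralateral (95% interval 0.03 to 0.43, adjusted p = 0.144) and 0.14 between injured nerves (95% interval -0.10 to 0.37, adjusted p = 0.531).

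To compare levels between genes, CPM were divided by the exonic length of each gene in kilobases (CPM per kb). That length joins all annotated exons of a gene and can exceed the length of its mRNA. The order depends on it. In CPM without lengths Eif4g1 lay above Eif4b in control contralateral nerves, at 291 ± 9.29 against 249 ± 7.64 (SD). In control contralateral nerves Eif4b was highest, at 55.8 ± 1.71 (SD, n = 3), followed by Eif4g1 at 39.8 ± 1.27, Eif4a1 at 36.1 ± 1.19, Larp1 at 19.5 ± 1.53, Pdcd4 at 16.5 ± 2.62, Eif4ebp2 at 12.6 ± 0.601, Eif4e at 10.6 ± 0.632, Rps6kb1 at 6.56 ± 0.642, Eif4ebp1 at 5.87 ± 0.384 and Rps6kb2 at 3.35 ± 0.754. The libraries of Larp1 and Pdcd4 overlapped in this order, as did those of Rps6kb1 and Eif4ebp1. In control injured nerves Eif4a1 came first at 121 ± 2.27, ahead of Eif4b at 64.4 ± 3.04 and Eif4g1 at 54.7 ± 7.57, whose libraries overlapped. They were followed by Eif4ebp1 at 20.6 ± 5.32, Larp1 at 18.4 ± 1.74, Eif4ebp2 at 15.8 ± 1.68, Eif4e at 13.8 ± 0.786, Pdcd4 at 9.94 ± 0.155, Rps6kb1 at 5.76 ± 0.783 and Rps6kb2 at 3.82 ± 0.900. Here the libraries of Eif4ebp1 overlapped those of Larp1 and Eif4ebp2, and Eif4ebp2 overlapped Eif4e, while Pdcd4 had dropped from the fifth to the eighth place.

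Ratios within a library do not depend on its scaling, and are given on the log2 scale of CPM per kb, with no test. The ratio of Eif4ebp1 to Eif4ebp2 was -1.10 ± 0.09 in control contralateral and -0.47 ± 0.43 in RaptorKO contralateral nerves, and 0.36 ± 0.27 and 0.48 ± 0.29 in control and RaptorKO injured nerves (SD). In all 7 contralateral libraries Eif4ebp2 was thus the higher of the 2 repressors per length, and in all 6 injured libraries Eif4ebp1 was. This order turns on the lengths: without them the ratio was also below 0 in injured nerves, at -1.04 and -0.92. The ratio of both 4E-BPs to Eif4e was 0.81 ± 0.15 and 1.14 ± 0.27 in control and RaptorKO contralateral and 1.38 ± 0.20 and 1.80 ± 0.34 in control and RaptorKO injured nerves, and the genotypes overlapped on both sides.

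The ratio of Pdcd4 to Eif4a1, the inhibitor to its helicase, was -1.14 ± 0.28 in control contralateral and -1.43 ± 0.37 in RaptorKO contralateral nerves. After crush it was -3.60 ± 0.03 and -3.43 ± 0.02. It ran from -3.63 to -3.58 in control and from -3.44 to -3.42 in RaptorKO injured nerves, narrow ranges that did not overlap. Eif4b to Eif4a1, a ratio added after the values had been seen, was 0.63 ± 0.09 and 1.44 ± 0.18 in control and RaptorKO contralateral nerves and -0.91 ± 0.08 and -0.61 ± 0.08 in control and RaptorKO injured nerves. Rps6kb1 to Rps6kb2 ran from 0.00 to 1.68 over the 13 libraries, and its 4 groups overlapped.

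**Figure D3:**
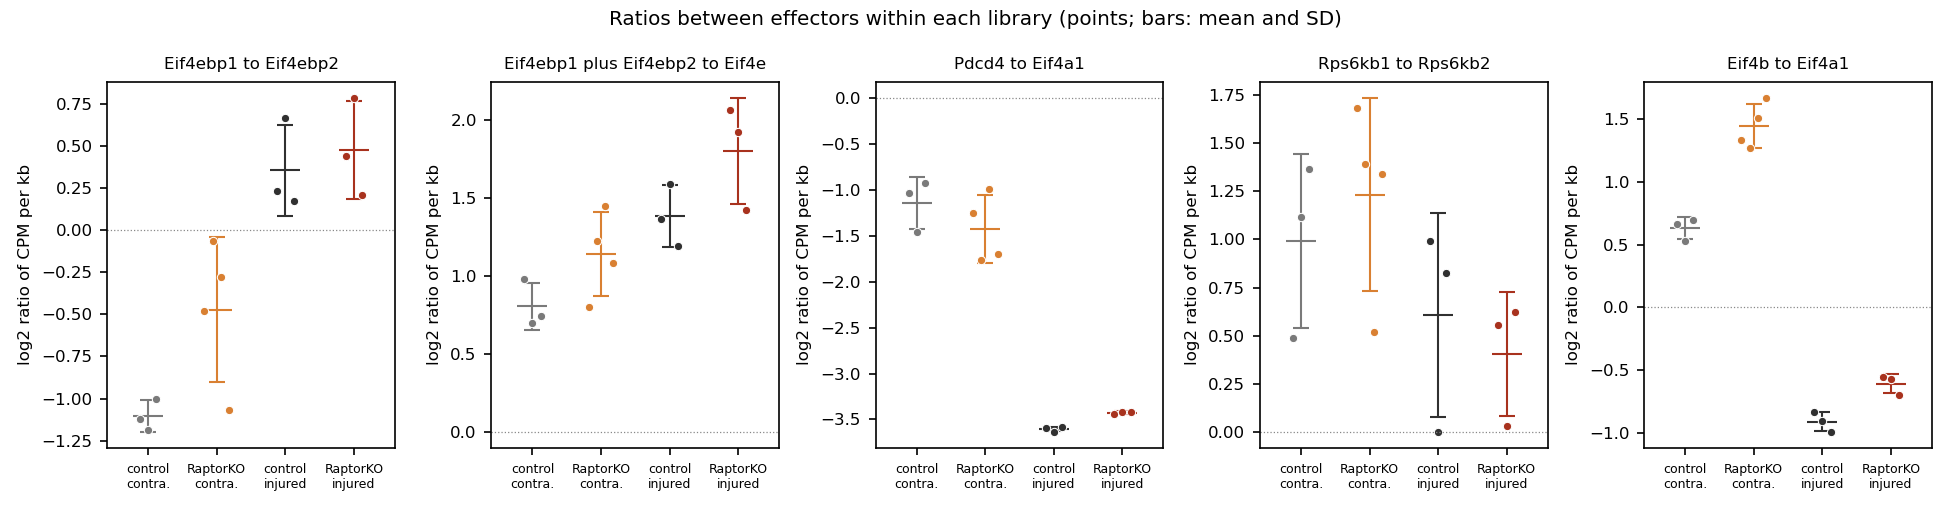
Log2 ratios of CPM per kb between members within each of the 13 libraries (points), with group means and SDs. The dotted line marks equal levels. Eif4ebp1 to Eif4ebp2 lies below 0 in each contralateral and above 0 in each injured library, and Pdcd4 to Eif4a1 drops to a tight cluster between -3.63 and -3.42 after crush.

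Genes around the members in the pathway were taken from 4 lists. Over all tested genes 4.49% were called higher and 5.68% lower between contralateral nerves, and 4.09% and 4.44% between injured nerves. Of 18 tested paralogs and partners of eIF4F, Pabpc1, the poly(A)-binding protein that contacts eIF4G, was called higher in RaptorKO nerves on both sides, by 0.78 (SE 0.10, adjusted p = 0.00112) in contralateral and 0.39 (SE 0.11, adjusted p = 0.0458) in injured nerves. Cyfip1, which represses translation through eIF4E, was called lower in contralateral nerves (-0.36, SE 0.09, adjusted p = 0.0246). The remaining members of that list were not called between genotypes, and its median was -0.04 in contralateral and 0.05 in injured nerves. Of 9 S6 kinase substrates and PDCD4 turnover genes only Rps6, ribosomal protein S6, was called between genotypes, higher by 0.95 (SE 0.07, adjusted p = 6.29e-05) and 0.63 (SE 0.12, adjusted p = 0.0104).

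Of 29 subunits and factors of eIF1, eIF2, eIF2B, eIF3, eIF5 and eIF6, 7 were called between contralateral and 3 between injured nerves, all higher in RaptorKO, and 24 of 29 were above 0 in each comparison. Of all tested genes 4.49% and 4.09% were called higher. The list medians were 0.19 and 0.17, against 0.01 and 0.00 over all tested genes. The largest contralateral differences were in eIF3 subunits, Eif3m at 0.88 (SE 0.11), Eif3h at 0.86 (SE 0.07) and Eif3e at 0.84 (SE 0.11). Between injured nerves they were Eif5b, the factor of subunit joining, at 0.79 (SE 0.11), Eif3e at 0.55 (SE 0.12) and Eif3g at 0.46 (SE 0.12). The responses to injury differed between genotypes for Eif5b (0.54) and Eif3j1 (0.53), more positive in RaptorKO, and for Eif3h (-0.53). Of the tested targets of ATF4, a transcription factor whose own translation mTORC1 promotes, Vldlr (0.61) and Atf5 (0.52) were called higher and Slc7a5 (-0.53) lower of 13 between contralateral nerves, and Atf5 lower (-0.46) of 15 between injured nerves. Atf5 thus took opposite directions on the 2 sides, and its responses to injury differed by -0.97 (SE 0.18, adjusted p = 0.0104).

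**Figure D4:**
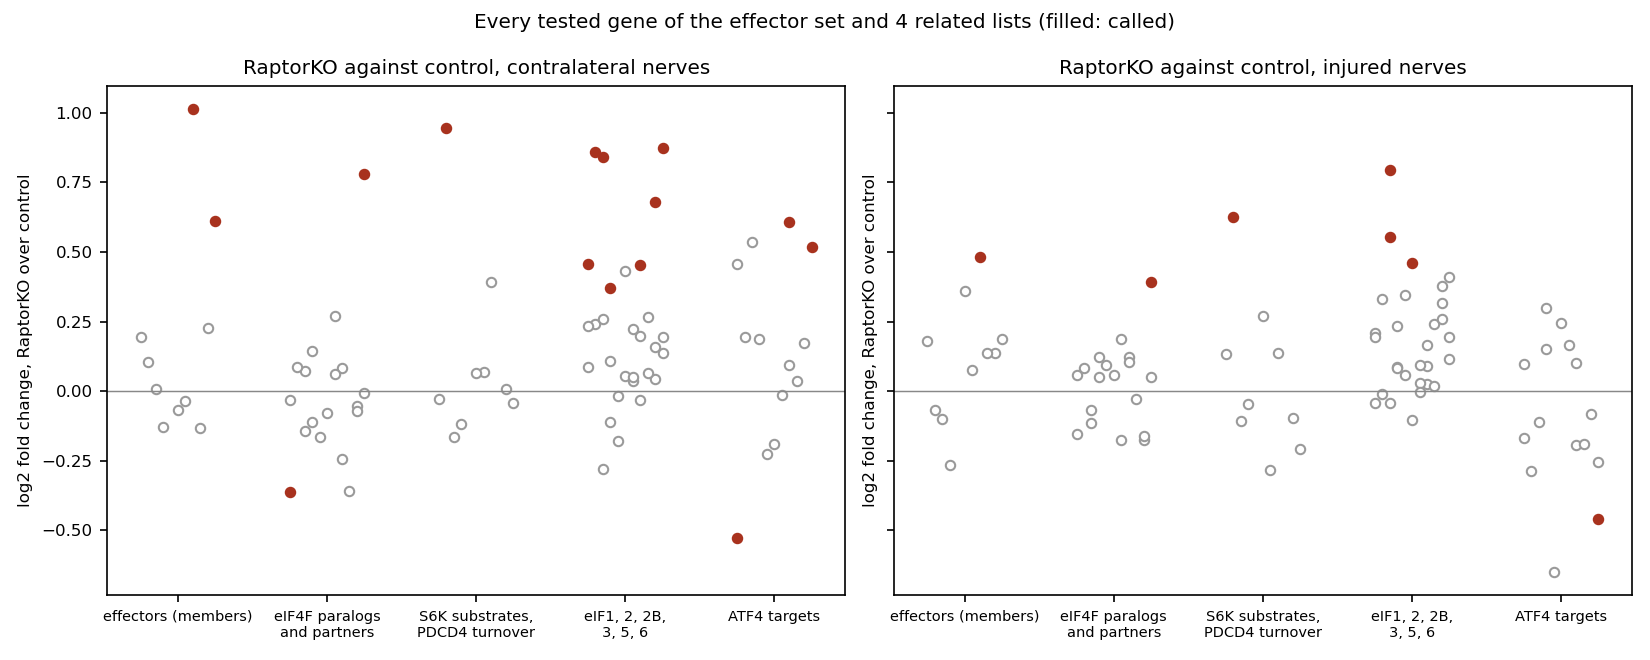
Log2 fold change of RaptorKO over control for every tested gene of the members and of the 4 related lists (points, filled where called), in contralateral (left) and injured nerves (right). The filled points lie above 0 in the members and in the eIF1 to eIF6 list on both sides.

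Injury moved the same lists in both directions. Over all tested genes 32.4% rose and 32.9% fell in controls, and 30.5% rose and 28.5% fell in RaptorKO nerves. Of the 18 eIF4F paralogs and partners 5 rose and 5 fell in controls, and 7 rose and 4 fell in RaptorKO nerves. Pabpc1 rose by 1.40 and 1.04 in control and RaptorKO nerves, and Eif4g3, a paralog of Eif4g1, by 0.58 and 0.75. Eif4e2 (0.47) was next in controls and Larp1b (0.74) in RaptorKO. Paip2b (-0.98 and -1.04) and Paip2 (-0.62 and -0.52), inhibitors of the poly(A)-binding protein, fell in both genotypes, as did the eIF4E kinase Mknk2 (-0.79 and -0.61). Of the S6 kinase list 3 rose and 3 fell in controls and 3 rose and 2 fell in RaptorKO. Rps6 (0.80 and 0.51), Eef2k (0.64 and 0.41) and the cap-binding protein gene Ncbp1 (0.62 and 0.70) rose. Btrc (-1.09 and -0.91), whose product takes PDCD4 to the proteasome, and Irs1 (-0.88 and -1.20) fell in both, and Rictor (-0.41) in controls.

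Of the 29 other initiation factors 13 rose and 4 fell in controls, and 10 rose and 2 fell in RaptorKO nerves. Over all tested genes the shares rising and falling were 32.4% and 32.9% in controls and 30.5% and 28.5% in RaptorKO nerves. Eif2s1 rose by 0.80 and 0.77. Eif3a (0.73) and Eif3f (0.61) were next in controls, and Eif2b2 (0.74) and Eif6 (0.69) in RaptorKO nerves. Eif1 fell by 1.13 and 1.35 and Eif3j1 by 1.02 and 0.47 in control and RaptorKO nerves, and Eif2b3 by 0.68 in controls. Of 15 ATF4 targets 8 rose and 4 fell in controls and 5 rose and 4 fell in RaptorKO. Cebpb (2.42 and 2.18) and Aldh18a1 (1.67 and 1.33) rose in both genotypes, with Sesn2 (1.79) in controls and Mthfd2 (1.78) in RaptorKO nerves. Slc7a5 (-3.28 and -2.43) and Phgdh (-2.25 and -2.68) fell in both, with Slc3a2 (-0.79) in controls and Vldlr (-1.38) in RaptorKO nerves. The injured nerves also held far more macrophage and proliferation marker mRNA, with all 10 and all 8 markers called higher in both genotypes.

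The genes nearest in pattern to each called member were those with the smallest root mean square difference in gene-centred log2 CPM over the 13 libraries, which share their scaling. For Eif4b these were Cox7a2l at 0.09, Nop53 at 0.18 and Rpl21 at 0.18, where Eif4b itself had an SD of 0.42. Those of Eif4a1 (SD 0.90) were Ctsz at 0.11, Rbm3 at 0.11 and Pdia5 at 0.12, and those of Eif4ebp1 (SD 0.86) were Uap1l1 at 0.19, Rps2 at 0.19 and Tmem132a at 0.21. Eif4ebp2 (SD 0.24) was nearest to Tnks at 0.07, Sqstm1 at 0.08 and Irak1 at 0.10, and Eif4e (SD 0.25) to Kpna3 at 0.10, Gng12 at 0.10 and Nmt1 at 0.11. For Eif4g1 (SD 0.24) they were Rragc at 0.05, Gorasp2 at 0.07 and Arhgap1 at 0.07. Rps6kb1 (SD 0.21) was nearest to Cops2 at 0.10, Tcaf1 at 0.11 and Rbm12b2 at 0.11, and Pdcd4 (SD 0.35) to Gbp2 at 0.16, Fkbp9 at 0.17 and H2afy2 at 0.17.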

How the data were processed

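RNA-seq was done on 13 sciatic nerve libraries. The authors trimmed single-end reads with Trimmomatic, quantified genes on GRCm38 with RSEM 1.2.22 and deposited expected counts per gene, not normalised. RSEM shares reads between similar genes, and 24.9% to 27.9% of nonzero values were not whole. The annotation release and strand setting are not given in the sources used here. Expected counts were rounded, and 0 columns were left unmapped. Symbols were found for 40550 of 40787 gene IDs, and lengths came from GENCODE M21.

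In R 4.3.3, genes with at least 50 counts in at least 2 libraries of a comparison were tested with edgeR 4.0.16 (TMM, quasi-likelihood F-test, Benjamini-Hochberg). SEs were the log2 fold change over the square root of F. The steps were tested on simulated data. Alternatives were DESeq2 1.42.0, edgeR's exact test, RLE factors, no filter, a replicate block, all 13 libraries in 1 fit and leaving out each library. Leaving out ribosomal protein genes, or both libraries of control replicate 3, was added after seeing the data. Pairing of sides was taken from equal numbers in the titles of a unilateral crush. Deviations of same-numbered libraries correlated across sides at 0.07, 0.13 and 0.30 in controls and at -0.03, 0.20 and 0.19 in RaptorKO nerves. By this measure 4 of 6 injured libraries lay nearest their own number. Same-numbered contralateral libraries of the 2 genotypes, from different mice, correlated at 0.04, 0.34 and 0.27. These correlations therefore cannot show that equal numbers mark 1 mouse. The study's methods name no block, so the main fit has none.

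The members and gene lists were chosen with earlier results of these data known. Named were all 10 members, Rptor, the 3 called genes per list and direction with the largest change, and the 3 genes nearest in pattern to each called member.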

Additional observations from a re-analysis of the deposited data

Results flagged for a closer look

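Rps6kb2 in RaptorKO contralateral nerves stood out for the distance of 1 library. Replicate 3 was at 21.9 CPM and the other 3 were at 12.6 to 14.1 CPM, so that the gap took 0.838 of the whole range of the group, above Dixon's critical value for 4 samples. Chance marks about 1 in 20 such groups, and 10 genes were looked at. Without that library Rps6kb2 rose by 0.63 with injury in RaptorKO nerves and was called (adjusted p = 0.0112), and with it the rise was 0.43 (adjusted p = 0.103).

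The interaction of genotype and injury was called for Eif4b, at -0.53 (SE 0.12, adjusted p = 0.0361, edgeR's quasi-likelihood test over 12851 genes). The call was lost in 14 of 18 alternatives, among them 11 of the 13 that left out 1 library, no count filter, a replicate block and both libraries of control replicate 3 left out. It was lower after crush in RaptorKO nerves, where the 3 injured libraries lay below the 4 contralateral ones, and higher in controls, where the 3 injured libraries lay above the 3 contralateral ones by 0.16, which was not called (adjusted p = 0.146).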

How the results depend on the processing

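The direction of each called member difference held under all alternatives. With each library left out in turn, the called genes numbered 447 to 999 between injured nerves (1028 with all), 524 to 1418 between contralateral nerves (1208) and 132 to 284 for the interaction (318), and the called members 0 to 1, 1 to 2 and 0 to 1. No count filter gave 1556 called genes between injured nerves and 0 called members for the interaction. DESeq2 gave 598 genes for the interaction. With all 13 libraries in 1 fit, 1 member was called between contralateral nerves. Without both libraries of control replicate 3, 113 genes and 0 members were called for the interaction.

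Some of the differences that were not called changed sign. With 1 library left out, Eif4ebp2 ran from -0.129 to 0.0137 between contralateral and from -0.00383 to 0.123 between injured nerves, Eif4g1 from -0.0136 to 0.0339 and Pdcd4 from -0.222 to 0.0370 between contralateral nerves. Rps6kb2 ran from -0.340 to 0.0663 between contralateral nerves, from -0.0242 to 0.333 between injured nerves and from -0.0332 to 0.335 with injury in controls, and the interaction of Eif4a1 from -0.0455 to 0.0139. Eif4g1 between contralateral nerves was -0.00490 with no count filter and -0.00977 with all 13 libraries in 1 fit. The interaction of Eif4a1 was 0.0128 without both libraries of control replicate 3. Without gene lengths Eif4ebp1 to Eif4ebp2 was -1.04 and -0.92 in control and RaptorKO injured nerves.

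A replicate block gave 796 called genes between injured, 1811 between contralateral, 8026 and 7267 with injury in control and RaptorKO nerves, and 353 for the interaction, with 1, 2, 6, 7 and 0 called members. Under it the interaction of Eif4b was -0.47 (adjusted p = 0.0693), Pdcd4 with injury in RaptorKO nerves was -0.41 (adjusted p = 0.0364) and Pdcd4 between contralateral nerves was 0.0203. It changed no other call of a member. Between genotypes numbers belong to different mice, and the labels do not say what same-numbered libraries share. Their deviations correlated at 0.04, 0.34 and 0.27 between contralateral and at 0.03, 0.01 and -0.05 between injured nerves. Why the block shifted these results was not tested.

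Depth limits Rps6kb2, with 111 to 324 counts per library, and Eif4ebp1, with 117 to 298 in contralateral nerves.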
